A study of Mus musculus with 40 samples.

Results

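The genes described here are 77 mouse genes of the interferon response, followed by bulk RNA sequencing through the repair of resected ribs in immature and mature mice. They were chosen by name alone from the 21203 genes of the tested count table. The name rule took the numbered Ifi, Ifit, Ifitm, Oas and Oasl, Gbp, Irf, Irgm and Isg symbols together with Mx1, Mx2, the STAT factors, Ifih1, Rsad2, Usp18, Bst2, Zbp1, Xaf1, Cmpk2 and Rtp4. All 77 had passed the low-count filter of the deposited table, and 9 more symbols that fit the names, among them Ifi44l and Oas1d, lay outside it with at most 12 reads in any library.

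The study asked how skeletal maturity and age change the regeneration of large rib defects. All mice were wild type and, by the study's account, female, with immature mice of 7 weeks and mature mice of more than 10 months, and the labels name no transgene or drug in any group. Each age was sampled at baseline, which the study defines as before resection although the sample labels speak of tissue taken after it, and on days 0, 2, 5 and 14 after resection (dpr, days post-resection). Every group had 4 libraries except mature 5dpr, for which 3 were used and 1 was not analysed here. Each library came from ground composite tissue of bone and intercostal muscle, to which some labels add bone marrow, so a change can reflect fewer cells of a type or less RNA per cell and these cannot be told apart. The labels do not say that the libraries came from separate animals, and the p-values measure only the spread between these libraries.

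Interferons are secreted proteins that cells release on sensing viral or misplaced nucleic acid. Type I interferons (alpha and beta) act through the receptor chains Ifnar1 and Ifnar2, and type II interferon (gamma) through Ifngr1 and Ifngr2. The kinases of these receptors activate STAT factors, which with Irf9 bind the interferon-stimulated response element (ISRE), while pairs of STAT factors bind the gamma-activated site (GAS). The genes turned on in this way encode proteins that block viral entry, translation and assembly, that sense nucleic acid, and that restrain the response itself. In bone, interferons are known to restrain the formation of osteoclasts, and macrophages and other myeloid cells of the marrow and of healing tissue are strong responders.

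Total counts ranged from 6057708 to 21536887 per library, with a median of 9087312, and no pair of libraries of a group agreed within sampling noise. Transcripts of the muscle and bone named in the tissue label were present. The summed CPM (a gene's counts scaled to the library's total with TMM factors) of 15 skeletal muscle genes and of 10 osteoblast genes was far above 0 in every library. No marker gene was at 0 in all libraries, which follows from the low-count filter that all of them had passed. These values do not test the label further. At 2dpr, 1 library of each age stood apart. In immature 2dpr replicate 1 the list members lay a median of 1.22 log2 units below the mean of the other 3 libraries, whereas the median of all genes differed by 0.01. Mature 2dpr replicate 3 held 14213 genes with reads against 19067 to 20822 in the other libraries, and its members lay a median of 0.96 log2 units below the mean of the others, where the median of all genes lay 0.497 below. For the change from 0 to 2dpr, the total counts of calls, the stage of the highest mean and the members whose call changed are given with and without these 2 libraries, as are counts by role where they changed, whereas the counts by promoter motif and for the other pathway lists hold all libraries.

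The members fall into 14 groups by role, and several sit in gene clusters (GRCm38 coordinates). The 11 IFI200 genes, among them Ifi203-ps, a pseudogene by its symbol, lie together at chr1:173468485-174031810. Proteins of this family bind DNA and are known as sensors and regulators in the nucleus. The 6 IFIT genes, whose products bind foreign RNA and hold back its translation, lie at chr19:34550694-34650009. The 8 OAS genes make or resemble oligoadenylate synthetases, which switch on RNase L. They are all on chromosome 5 but spread over the wide interval chr5:114896936-120907521. The 11 guanylate-binding proteins (GBP), GTPases that attack the membranes around microbes, form a cluster of 5 genes at chr3:142493978-142638008 and another of 6 at chr5:105014150-105346472. The 6 IFITM genes (membrane proteins that restrict viral entry) span chr7:140948958-142373753 and the 2 MX genes, GTPases that trap viral particles, lie at chr16:97447035-97560900. The remaining members are 9 interferon regulatory factors (IRF), 3 IRF-binding proteins, 2 immunity-related GTPases (IRGM), 3 ISG genes, the STAT factors, the nucleic acid sensors Ifih1 and Zbp1, 6 other IFI genes and 6 single genes. Near-identical neighbours such as Oas1a and Oas1g, Ifit3 and Ifit3b, Gbp6 and Gbp10, Ifi203 and Ifi203-ps and the IFI200 genes in general can share reads, and the split between them is uncertain.

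The name rule also takes in genes that interferon is not known to drive. Ifitm5 is an osteoblast protein of mineralizing bone, Irf4 is best known from B cells and plasma cells, and Isg20l2 is a nucleolar exonuclease of ribosome assembly. Irf2bp1, Irf2bp2 and Irf2bpl share only a link to Irf2, and the function of Ifitm10 in this tissue is not known. They are kept in every count below.

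A promoter window from RefSeq (GRCm38.p6; 250 bases before to 50 after the start) was found for 58 of the 77 members. An ISRE match, searched as GAAA, any 2 bases and GAAA again (on the other strand TTTC, any 2 bases and TTTC), was present in 32 of them (55.2%) and in 3.99% of 27025 genes with windows. A GAS match, searched as TTCNNNGAA, which reads the same on both strands, was present in 14 members (24.1%) and in 9.55% of all those genes. Matches of a motif can overlap each other and those of the other motif, and a match is a description of letters and not a shown binding site. The 250 bases before the start are printed for 8 members because they carry the matches in members that rose at 2dpr (Isg15, Ifit1, Ifit3, Oas1a, Irgm1, Gbp2), in Rsad2, which holds a match and was not called at 2dpr with all libraries, and in Irf1, which shows the GAS form. Each runs 5′ to 3′ along the gene's strand, with capitals marking every ISRE or GAS match.
Isg15 (chr4:156200819-156201068, minus strand): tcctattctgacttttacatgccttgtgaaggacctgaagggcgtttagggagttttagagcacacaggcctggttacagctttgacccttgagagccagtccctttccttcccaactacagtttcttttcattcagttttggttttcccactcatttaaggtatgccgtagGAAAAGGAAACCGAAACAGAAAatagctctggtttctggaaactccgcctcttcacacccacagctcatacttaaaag
Ifit1 (chr19:34640639-34640888, plus strand): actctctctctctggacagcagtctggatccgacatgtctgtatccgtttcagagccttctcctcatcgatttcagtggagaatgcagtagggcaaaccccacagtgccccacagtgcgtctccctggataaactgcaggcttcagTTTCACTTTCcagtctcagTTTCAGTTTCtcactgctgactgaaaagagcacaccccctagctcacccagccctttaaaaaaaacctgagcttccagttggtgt
Ifit3 (chr19:34583279-34583528, plus strand): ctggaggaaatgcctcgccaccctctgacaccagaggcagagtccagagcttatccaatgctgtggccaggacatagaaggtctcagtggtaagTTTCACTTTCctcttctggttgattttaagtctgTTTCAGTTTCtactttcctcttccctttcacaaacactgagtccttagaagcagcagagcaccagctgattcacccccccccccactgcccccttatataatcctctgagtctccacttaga
Oas1a (chr5:120907526-120907775, minus strand): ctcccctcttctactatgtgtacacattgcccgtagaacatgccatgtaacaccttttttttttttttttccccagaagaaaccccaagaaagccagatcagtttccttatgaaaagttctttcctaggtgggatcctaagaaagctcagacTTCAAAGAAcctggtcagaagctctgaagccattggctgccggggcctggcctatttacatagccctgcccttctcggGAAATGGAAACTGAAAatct
Irgm1 (chr11:48871421-48871670, minus strand): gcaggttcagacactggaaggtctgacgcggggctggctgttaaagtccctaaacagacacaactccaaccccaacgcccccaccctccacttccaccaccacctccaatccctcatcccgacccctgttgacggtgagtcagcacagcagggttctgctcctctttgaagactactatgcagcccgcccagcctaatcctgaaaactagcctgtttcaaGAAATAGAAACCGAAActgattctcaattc
Gbp2 (chr3:142620413-142620662, plus strand): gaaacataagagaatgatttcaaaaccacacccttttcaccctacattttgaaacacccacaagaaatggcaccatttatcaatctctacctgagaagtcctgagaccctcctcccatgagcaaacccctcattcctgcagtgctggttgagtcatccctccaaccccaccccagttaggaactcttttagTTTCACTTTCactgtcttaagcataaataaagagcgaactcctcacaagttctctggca
Rsad2 (chr12:26456453-26456702, minus strand): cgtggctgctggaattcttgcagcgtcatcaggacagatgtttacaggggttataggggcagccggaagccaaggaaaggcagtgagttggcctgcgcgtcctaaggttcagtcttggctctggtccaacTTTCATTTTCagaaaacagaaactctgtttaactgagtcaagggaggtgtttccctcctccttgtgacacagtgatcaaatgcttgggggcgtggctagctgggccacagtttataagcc
Irf1 (chr11:53769764-53770013, plus strand): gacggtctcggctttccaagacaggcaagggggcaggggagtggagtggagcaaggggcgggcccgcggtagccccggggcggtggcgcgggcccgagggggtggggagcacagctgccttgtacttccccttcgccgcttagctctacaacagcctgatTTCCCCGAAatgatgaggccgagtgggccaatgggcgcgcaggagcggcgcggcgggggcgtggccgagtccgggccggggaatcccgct

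The Isg15 window holds 3 overlapping ISRE matches that begin 78, 72 and 66 bases before the start, and the Oas1a window holds a GAS match at 98 bases and overlapping ISRE matches at 20 and 14 bases. In Ifit1 the matches lie at 104 and 85 bases, in Ifit3 at 156 and 122 bases, in Irgm1 at 30 and 24 bases, and in Gbp2 and Rsad2 a single match lies at 59 and 120 bases. Between 0 and 2dpr, when 21.8% of all genes were called higher in immature and 22.7% in mature mice, 24 of the 32 members with an ISRE match were called higher in immature mice and 27 in mature mice, with median log2 fold changes of 1.41 and 2.08. Of the 26 members without one, 17 were called higher at each age, with medians of 1.14 and 1.26. Of the 14 members with a GAS match, 7 and 9 were called higher, with medians of 0.83 and 0.84, and of the 44 without one 34 and 35 were, with medians of 1.44 and 1.98.

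Across the 5 stages, most of these genes were at their highest on day 2 after resection at both ages. The group mean peaked at 2dpr for 50 of the 77 members in immature mice and for 54 in mature mice, against 24.5% and 21.7% of all genes. The lowest group mean fell at 0dpr for 40 and 48 members, against 26.7% and 25.3% of all genes. Gbp8, Gbp10, Ifi208, Ifitm6, Isg20 and Rsad2 were instead highest at baseline at both ages, and Gbp3, Ifi44 and Irgm2 were highest at 5dpr at both ages. Without the 2 libraries that stood apart, 57 and 60 members were highest at 2dpr (24.7% and 23.7% of all genes), with Rsad2 in immature mice and Ifi208 and Irgm2 in mature mice among them. With all libraries 7 members, Gbp5, Gbp6, Gbp10, Ifit1bl2, Ifitm10, Irf2 and Irf3, passed the threshold in none of the 10 comparisons between stages, and Gbp5, Ifit1bl2, Ifitm10, Irf2 and Irf3 of these were called higher at 2dpr in at least 1 age without those 2 libraries.

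**Figure D1:**
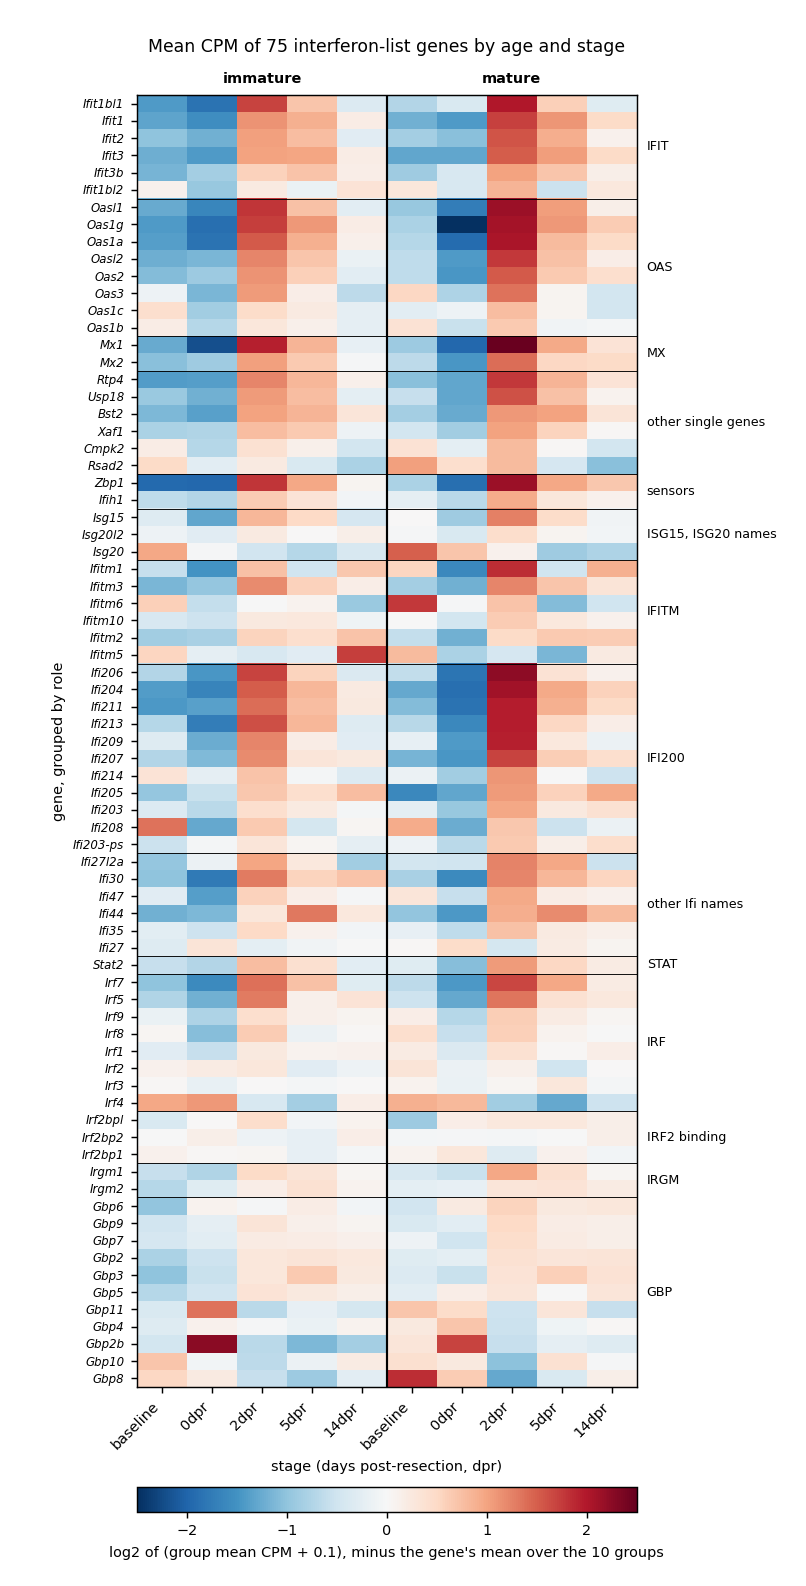
Heatmap of 75 of the 77 genes, grouped by role (rows), in the 10 groups of age and stage (columns). The colour is the log2 of the group mean CPM plus 0.1, relative to the mean of that gene over the groups, and most IFI200, IFIT, OAS and MX rows are darkest red at 2dpr at both ages.

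Between 0 and 2dpr, 52 of the 77 members rose and 6 fell at the immature age by the quasi-likelihood test of edgeR (Benjamini-Hochberg adjusted p under 0.05 over all genes), where 21.8% of all genes rose and 22.2% fell. In mature mice 56 rose and 7 fell, against 22.7% and 24.9% of all genes. The median log2 fold change of the members was 1.24 in immature and 1.53 in mature mice, where the medians of all genes were -0.04 and -0.05. All 52 members that rose in immature mice also rose in mature mice (100% of the immature and 92.9% of the mature list), where 76.8% and 73.7% of the higher calls over all genes were shared, and Gbp7, Ifi203-ps, Ifi214 and Irgm2 passed the threshold at the mature age only, without a call for a different change between the ages. Every 2dpr library lay above every 0dpr library for 36 members in immature mice (20.4% of all genes) and for 43 in mature mice (14.7%). Without the 2 libraries that stood apart, the counts were 58 higher and 6 lower in immature mice (23.2% and 23.4% of all genes in the same fit) and 59 higher and 5 lower in mature mice (24.4% and 24.4%). Gbp5, Gbp7, Ifi214, Ifit1bl2, Irgm2 and Rsad2 gained the call in immature mice, and in mature mice Ifit1bl2, Ifitm10, Irf2 and Irf3 gained it and Gbp2b, Irf2bp1 and Oas1c lost it.

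The make-up of the tissue changed over the same interval. All 10 macrophage markers rose at both ages, with summed levels of 557 to 775 CPM at 0dpr and 3334 to 4511 CPM at 2dpr in immature mice, and, for mature mice, of 612 to 777 and 3552 to 4672 CPM. All 15 skeletal muscle markers fell, from 66443 to 140394 CPM down to 13161 to 19475 CPM in immature and from 75770 to 156027 CPM down to 9445 to 19504 CPM in mature mice. Of 6 monocyte markers 5 rose at each age, with median log2 fold changes of 2.13 and 2.54, all 9 adipocyte markers fell at each age, and 8 of 10 erythroid markers fell in immature and all 10 in mature mice. Of 10 B cell markers 9 fell at each age, and of 5 plasmacytoid dendritic cell markers, a cell type known for its output of type I interferon, 1 fell in immature and 4 in mature mice. With the skeletal muscle score of each library as a covariate, 17 members were called higher and 1 lower in immature mice (4.41% and 3.37% of all genes in the same fit) and 23 and 1 in mature mice (4.16% and 2.90%). The muscle levels at the 2 stages did not overlap at either age, so stage and muscle share cannot be told apart, and the part of these cells in the result was not tested.

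**Figure D2:**
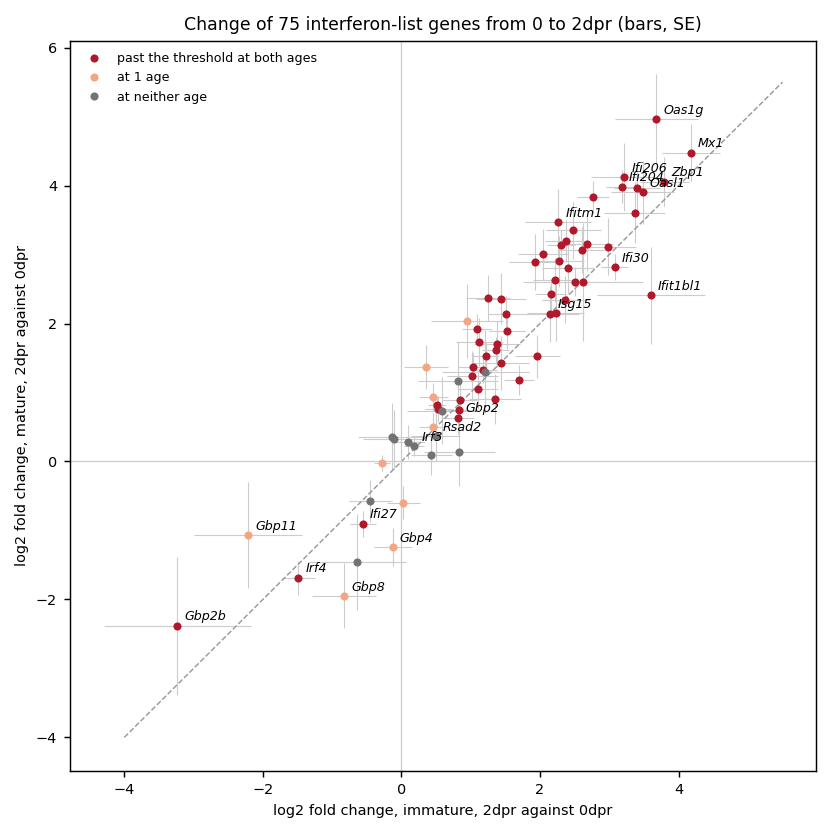
Log2 fold change of 75 of the 77 genes from 0 to 2dpr in immature mice (horizontal axis) and mature mice (vertical axis), with bars of 1 SE. Dark points passed the threshold at both ages, light points at 1 age and grey points at neither, and most lie above 0 on both axes, with Mx1, Zbp1 and Oas1g among the highest.

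Mx1 and Zbp1 had some of the largest changes. Mx1 measured 1.79, 7.03, 1.64 and 2.23 CPM in the immature libraries at 0dpr and 13.1, 69.4, 89.0 and 57.7 CPM at 2dpr. In mature mice it measured 4.08, 3.12, 3.21 and 4.45 CPM and then 106, 66.8, 54.2 and 103 CPM. Every 2dpr library was above every 0dpr library at both ages, and the lowest 2dpr value was that of immature replicate 1. The change was 18.1-fold in immature mice (log2 fold change 4.18 ± 0.42 SE, edgeR adjusted p = 3.8e-10) and 22.3-fold in mature mice (4.48 ± 0.42 SE, edgeR adjusted p = 4.9e-11). Mx2, its neighbour, rose 3.82-fold and 7.42-fold.

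Zbp1, which detects Z-form nucleic acid and can trigger cell death, measured 3.74, 5.92, 2.46 and 3.48 CPM at 0dpr and 19.7, 59.3, 85.2 and 51.0 CPM at 2dpr in immature mice. The mature libraries gave 4.39, 3.49, 3.99 and 4.72 CPM and 86.2, 61.5, 39.9 and 88.1 CPM. The stages did not overlap at either age, and the log2 fold changes by edgeR were 3.80 ± 0.35 (adjusted p = 6.6e-11) and 4.06 ± 0.35 (adjusted p = 9.5e-12). Ifih1, the MDA5 sensor of long double-stranded RNA, went from 33.8, 30.7, 36.2 and 27.5 CPM to 40.4, 92.8, 106 and 90.4 CPM in immature mice. In mature mice it went from 29.5, 32.6, 34.5 and 35.8 CPM to 120.0, 96.3, 77.5 and 111 CPM. Its change was smaller (1.36 ± 0.19 and 1.61 ± 0.19 log2 units), yet again no 2dpr library fell into the range of 0dpr.

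All 8 OAS genes rose at both ages (7 in mature mice without the 2 libraries that stood apart), with median log2 fold changes of 2.30 in immature and 3.10 in mature mice. The shares of all genes that rose were 21.8% and 22.7% (24.4% in mature mice without those 2 libraries). Oasl2, an OAS-like protein, measured 29.6, 27.6, 25.7 and 13.4 CPM and then 45.7, 155, 161 and 137 CPM in immature libraries. The mature libraries measured 18.5, 21.5, 21.3 and 18.3 CPM and then 222, 149, 131 and 228 CPM. The groups were apart at both ages (edgeR log2 fold changes 2.37 ± 0.30, adjusted p = 4.5e-08, and 3.20 ± 0.31, adjusted p = 1.1e-10). Oas1g had the largest change of the family in mature mice, 4.97 ± 0.65 log2 units (edgeR adjusted p = 8.1e-08). Its mature 2dpr libraries read 44.5, 32.0, 1.78 and 39.6 CPM over 2.04, 0.249, 0.776 and 0.833 CPM at 0dpr, so replicate 3 fell inside the 0dpr range. In immature mice Oas1g rose by 3.68 ± 0.60 log2 units (edgeR adjusted p = 4.5e-06), and Oas1a, whose promoter is printed above, by 3.40 ± 0.33 and, in mature mice, 3.96 ± 0.34. Oasl1, known to dampen translation of Irf7, rose by 3.48 ± 0.45 log2 units in immature mice.

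Of the 6 IFIT genes 5 rose at each age, and Ifit1bl2 passed the threshold only without the 2 libraries that stood apart, when all 6 rose at both ages. Over all genes 21.8% rose in immature and 22.7% in mature mice, and 23.2% and 24.4% without those 2 libraries. Ifit2, which binds RNA and promotes cell death, measured 13.4, 21.1, 21.6 and 14.7 CPM at 0dpr and 25.2, 97.5, 109 and 99.4 CPM at 2dpr in immature mice. In mature mice the values were 16.2, 22.2, 20.7 and 19.4 CPM and 144, 97.4, 69.5 and 176 CPM. The 25.2 CPM of immature replicate 1 was the 2dpr value closest to the 0dpr range, and the changes were 2.22 ± 0.31 (adjusted p = 3.7e-07) and 2.63 ± 0.31 (adjusted p = 1.2e-08) log2 units by edgeR. Ifit1, with 2 ISRE matches in the window shown, rose by 2.67 ± 0.39 and 3.15 ± 0.39 log2 units. Ifit3 rose by 2.41 ± 0.38 and 2.81 ± 0.38, and Ifit1bl1, a paralog of Ifit1, rose by 3.60 ± 0.77 in immature mice.

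In the IFI200 family 9 of 11 genes rose in immature (10 without the 2 libraries that stood apart) and all 11 in mature mice, with medians of 2.48 and 3.14 log2 units. Among all genes 21.8% rose in immature (23.2% without those 2 libraries) and 22.7% in mature mice. Ifi204, a regulator of macrophage differentiation, measured 18.8, 22.7, 19.9 and 20.6 CPM and then 87.0, 239, 232 and 187 CPM in immature libraries. In mature libraries the values were 12.7, 19.5, 19.9 and 18.1 CPM and 329, 272, 244 and 269.7 CPM. The groups were far apart at both ages (9.07-fold and 15.8-fold, edgeR adjusted p = 4.3e-13 and 3.0e-15). Ifi206 rose by 4.12 ± 0.50 log2 units in mature mice. Ifi211 went from 6.28, 10.4, 11.6 and 9.74 CPM to 30.6, 80.0, 83.8 and 64.8 CPM in immature mice and from 5.80, 5.86, 7.42 and 7.92 CPM to 123, 89.7, 96.8 and 76.7 CPM in mature mice, without overlap.

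**Figure D3:**
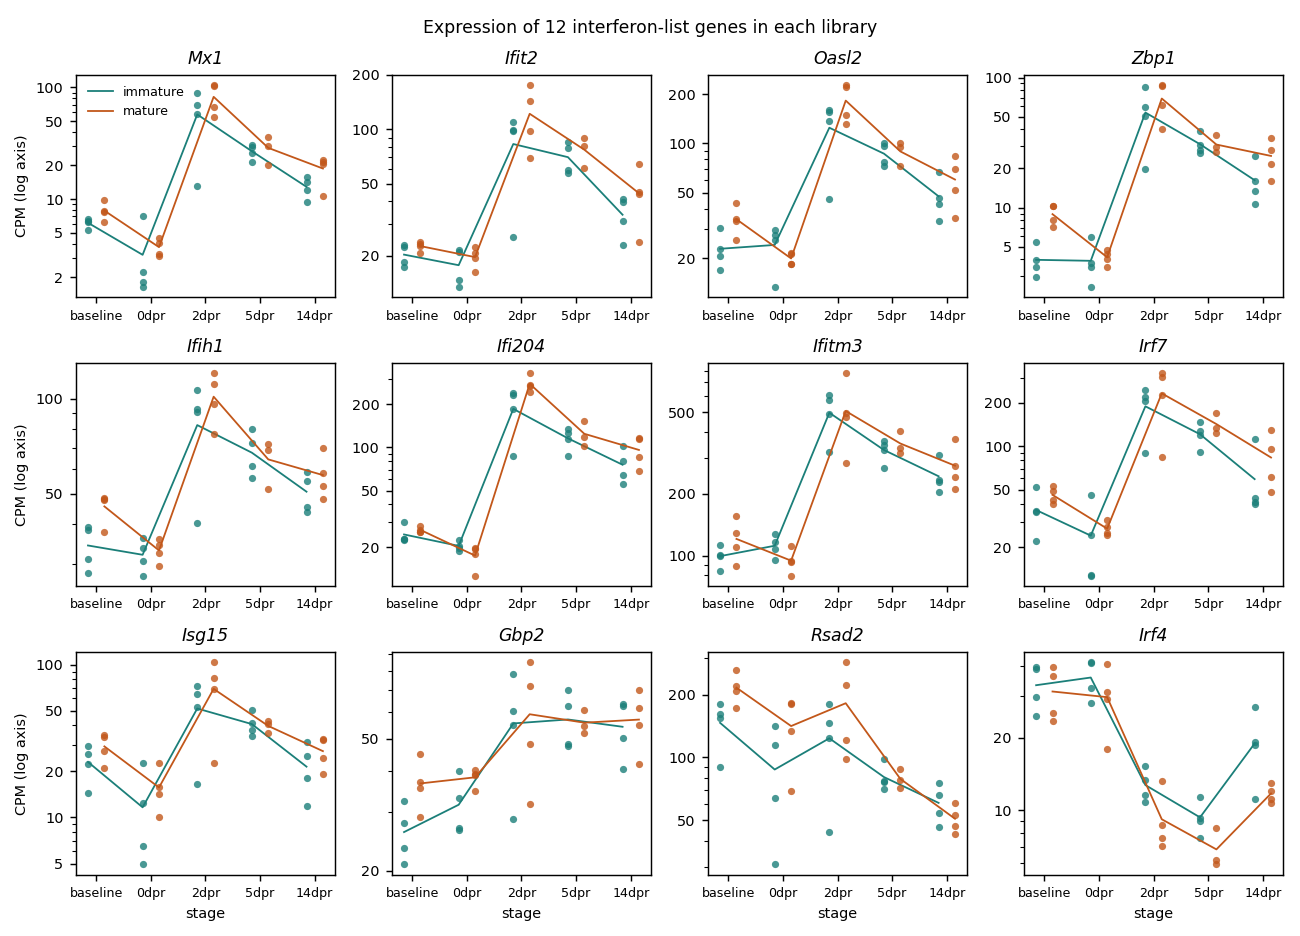
CPM of 12 genes in each library on log axes, by stage, for immature and mature mice, with lines through the group means. For Mx1, Zbp1 and Ifi204 the 2dpr points lie above all 0dpr points at both ages, whereas Rsad2 overlaps between these stages and Irf4 falls.

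Of the 9 IRF genes 5 rose and 2 fell at each age (55.6% and 22.2%), where the shares of all genes that rose and fell were 21.8% and 22.2% in immature and 22.7% and 24.9% in mature mice. Without the 2 libraries that stood apart 5 rose and 2 fell in immature and 7 and 2 in mature mice, where 23.2% and 24.4% of all genes rose and 23.4% and 24.4% fell. Irf7, the main driver of interferon alpha genes, measured 12.7, 46.1, 12.9 and 24.5 CPM and then 89.5, 219, 245 and 205 CPM in immature mice. The mature values were 24.2, 25.1, 27.6 and 30.7 CPM and 302, 225, 84.4 and 320.3 CPM. No library overlapped, and the changes were 7.88-fold and 8.67-fold (edgeR adjusted p = 2.3e-07 and 7.6e-08). Irf5, which drives inflammatory genes in macrophages, rose by 2.51 ± 0.21 and 2.60 ± 0.21 log2 units, and its immature 2dpr libraries, at 119, 135, 135 and 117 CPM, lay within a narrow range. Irf8, a lineage factor of monocytes, rose by 1.70 ± 0.22 and 1.18 ± 0.22, Irf9 by 1.18 ± 0.20 and 1.33 ± 0.20, and Irf1, with the GAS match shown, by 0.83 ± 0.17 and 0.74 ± 0.17. Stat2, the partner of Irf9, rose by 1.51 ± 0.26 and 2.13 ± 0.27. The Stat2 value of immature replicate 1, 36.0 CPM, lay within the 0dpr range of 36.3, 29.5, 23.7 and 21.8 CPM.

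Of the 6 IFITM genes 3 rose at each age (4 in mature mice without the 2 libraries that stood apart), and of the 3 ISG genes 2 did. For all genes the share that rose was 21.8% in immature and 22.7% in mature mice (24.4% in mature mice without those 2 libraries). Ifitm3, which stops viruses at the endosome, measured 116, 127, 108 and 95.7 CPM and then 319, 577, 605 and 489.8 CPM in immature mice. In mature mice it measured 79.9, 92.8, 93.8 and 111 CPM and then 774, 474, 282 and 499 CPM. The stages were apart at both ages, with changes of 2.16 ± 0.22 (adjusted p = 9.0e-10) and 2.43 ± 0.23 (adjusted p = 5.2e-11) log2 units by edgeR. Ifitm1 and Ifitm2 also rose at both ages, whereas Ifitm5, Ifitm6 and Ifitm10 did not pass the threshold at either. Isg15, a ubiquitin-like protein that is both attached to targets and secreted, measured 4.93, 22.7, 6.46 and 12.5 CPM and then 16.5, 53.0, 72.9 and 64.0 CPM in immature libraries. Its mature values were 10.0, 15.8, 14.2 and 22.8 CPM and 104, 69.5, 22.6 and 81.6 CPM. At each age the library that stood apart fell inside the 0dpr range, and the changes were 2.15 ± 0.41 (adjusted p = 5.6e-05) and 2.14 ± 0.41 (adjusted p = 4.1e-05) log2 units by edgeR.

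Usp18, which strips Isg15 from proteins and quietens the type I receptor, rose by 2.27 ± 0.36 and 2.91 ± 0.37 log2 units. Bst2, the tether that holds budding virus at the cell surface, rose by 2.37 ± 0.34 and 2.34 ± 0.34, Rtp4 by 2.61 ± 0.32 and 3.07 ± 0.33, and Xaf1, a promoter of apoptosis, by 1.52 ± 0.26 and 1.89 ± 0.26. Ifi30, the lysosomal thiol reductase of antigen-presenting cells, measured 30.0, 42.0, 22.2 and 36.4 CPM and then 271, 262, 319 and 249.7 CPM in immature mice. Its mature values were 24.8, 43.0, 36.3 and 43.6 CPM and 291, 260.4, 179 and 314 CPM. For Ifi30 immature replicate 1 was not low, and the changes were 8.44-fold and 7.06-fold (edgeR adjusted p = 1.4e-14 and 4.8e-14). Ifi27l2a, a small mitochondrial protein, rose by 1.13 ± 0.34 and 1.73 ± 0.35 log2 units.

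Among the 11 GBP genes 3 rose and 2 fell (27.3% and 18.2%, against 21.8% and 22.2% of all genes) at the immature and 4 rose and 3 fell (36.4% and 27.3%, against 22.7% and 24.9%) at the mature age, with medians of -0.11 and 0.14 log2 units. Without the 2 libraries that stood apart 5 rose and 2 fell in immature mice (45.5% and 18.2%, against 23.2% and 23.4% of all genes) and 4 rose and 2 fell in mature mice (24.4% and 24.4% of all genes), and the medians were 0.15 and 0.28, so the sign of the immature median changed. Gbp2, best known as a target of interferon gamma, measured 26.9, 33.0, 39.9 and 26.6 CPM and then 28.6, 60.4, 78.2 and 55.2 CPM in immature mice. In mature mice the values were 34.8, 40.3, 38.8 and 39.0 CPM and 85.1, 48.2, 31.8 and 72.1 CPM. The stages overlapped at both ages and the changes were 0.81 ± 0.24 (adjusted p = 0.0062) and 0.64 ± 0.24 (adjusted p = 0.028) log2 units by edgeR. Irgm1, an autophagy-linked GTPase, rose by 1.22 ± 0.20 and 1.53 ± 0.20, and Irgm2 by 0.50 ± 0.19 in mature mice.

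Few members fell between 0 and 2dpr. At both ages 4 members fell, among them Gbp2b, Ifi27 and Irf4 (66.7% of the immature and 57.1% of the mature list, against 77.1% and 68.6% over all genes). Gbp11 and Irf2bp2 passed the threshold at the immature age only and Gbp4, Gbp8 and Irf2bp1 at the mature age only, and no difference in change between the ages was called for any of them. Irf4 measured 27.9, 41.3, 32.2 and 41.2 CPM and then 13.3, 15.2, 11.6 and 10.8 CPM in immature mice. The mature values were 30.9, 40.4, 28.9 and 17.9 CPM and 13.2, 7.10, 7.66 and 8.65 CPM. The stages did not overlap at either age (edgeR log2 fold changes -1.49 ± 0.24, adjusted p = 3.8e-06, and -1.69 ± 0.24, adjusted p = 3.9e-07), and the fall passed the threshold with the muscle covariate too. Of the 10 B cell markers 9 fell with it at each age, with medians of -2.10 and -3.09 log2 units over the list, and their part in the Irf4 result was not tested. Further falls past the threshold were those of Gbp2b (-3.23 ± 1.06), Gbp11 (-2.21 ± 0.78) and Irf2bp2 (-0.28 ± 0.12) in immature mice and of Gbp8 (-1.95 ± 0.47) and Irf2bp1 (-0.59 ± 0.24) in mature mice. Gbp4 fell from 14.3, 14.5, 29.9 and 13.2 CPM to 8.10, 6.41, 6.55 and 9.16 CPM in mature mice (-1.25 ± 0.28), and Ifi27, a relative of Ifi27l2a, changed by -0.56 ± 0.19 and -0.90 ± 0.19. The low Gbp2b lost its call in mature mice in each of the omissions of mature 0dpr replicates 1 to 3 and mature 2dpr replicates 1 to 3.

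Rsad2 and Isg20 are widely used markers of the interferon response and did not pass the threshold in this interval with all libraries. Rsad2, or viperin, which makes an antiviral nucleotide, measured 30.8, 141, 64.0 and 114 CPM and then 43.9, 124, 180.0 and 146 CPM in immature mice. Its mature values were 69.2, 181, 134 and 181 CPM and 222, 121, 98.7 and 285 CPM. The stages overlapped at both ages, and the log2 fold changes by edgeR were 0.50 ± 0.36 (adjusted p = 0.27) and 0.36 ± 0.35 (adjusted p = 0.42). Without the 2 libraries that stood apart they were 0.78 ± 0.33 (adjusted p = 0.049) and 0.57 ± 0.32 (adjusted p = 0.15) by edgeR. Cmpk2, its neighbour on chromosome 12 and a mitochondrial nucleotide kinase, rose by 1.10 ± 0.29 and 1.05 ± 0.29. Isg20, an exonuclease of RNA, gave -0.45 ± 0.31 (adjusted p = 0.25) and -0.58 ± 0.31 (adjusted p = 0.12) by edgeR.

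From 2 to 5dpr nearly all members that passed the threshold fell. In mature mice 18 members fell and 1 rose, against 6.38% and 8.16% of all genes, and 7 of the 18 were IFI200 genes. In immature mice 6 fell and 1 rose, against 3.67% and 4.37% of all genes. The median log2 fold changes were -0.57 in mature and -0.30 in immature mice. No member passed the test of a different change between the ages at an adjusted threshold, as given below. In mature mice the largest falls were those of Ifitm1 (-2.33 ± 0.49), Ifi206 (-1.89 ± 0.47), Ifitm6 (-1.79 ± 0.56), Ifi209 (-1.69 ± 0.42) and Mx1 (-1.52 ± 0.38), and Ifi27 rose by 0.64 ± 0.20. In immature mice Irf5 fell by 1.17 ± 0.20 log2 units, to 53.0, 61.9, 50.8 and 59.9 CPM, without overlap, and Mx1, Ifi207, Irf8, Ifi30 and Ifi204 fell, with log2 fold changes between -0.68 and -1.10. Ifi44 rose in immature mice from 3.56, 18.5, 17.6 and 13.8 CPM to 20.5, 30.3, 36.1 and 22.7 CPM (1.04 ± 0.33, adjusted p = 0.048 by edgeR), and this call was lost in 6 of the 8 omissions of a library of either group.

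These counts depended on single libraries. Without immature 2dpr replicate 1, 14 members fell and 0 rose from 2 to 5dpr in immature mice, where 3.09% of all genes fell in the same fit and 3.57% rose. The other 7 omissions of a single library left 3 to 5 members that fell (3.90% to 6.49% of the 77), where 2.11% to 3.01% of all genes fell. Without mature 2dpr replicate 3, 32 members fell in mature mice (5.94% of all genes), and 8 and 10 fell without mature 5dpr replicates 1 and 4 (3.43% and 2.82%). Without both 2dpr libraries that stood apart, 20 members were called in immature and 38 in mature mice (9.57% and 13.1% of all genes). Fitting only the libraries compared gave 11 calls in immature and 9 in mature mice (14.1% and 3.35% of all genes), and the muscle covariate gave 4 and 7 (5.82% and 8.15%). A replicate block gave 4 in immature mice (6.28% of all genes). Summed muscle levels in immature mice, 13161 to 19475 CPM at 2dpr and 21325 to 26976 CPM at 5dpr, did not overlap. The muscle covariate thus cannot tell stage and muscle share apart there. Over this interval in mature mice 5 of 6 monocyte markers fell and 9 of 15 muscle markers rose, while in immature mice 2 of 6 monocyte and 4 of 10 macrophage markers fell and 3 muscle markers rose, and their part in the result was not tested.

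Between 5 and 14dpr 3 members passed the threshold in immature and 1 in mature mice, and these counts varied with the fit. Fitting only the libraries compared gave 19 calls in immature mice (4 higher and 15 lower, against 4.77% and 4.07% of all genes) and 6 in mature mice (4 and 2, against 5.44% and 6.77%), DESeq2 gave 8 and 3 (5.397% and 7.45%), and the muscle covariate gave 5 in immature mice (2.68%). Summed muscle levels in immature mice, 21325 to 26976 CPM at 5dpr and 12189 to 20453 CPM at 14dpr, did not overlap. That covariate thus cannot tell stage and muscle share apart. In immature mice Ifitm5 and Irf4 rose and Ifit2 fell (1.73% and 1.45% of all genes). Ifitm5 measured 1.59, 2.63, 3.36 and 2.78 CPM and then 8.04, 13.9, 5.32 and 15.9 CPM, without overlap (2.03 ± 0.47, adjusted p = 0.0089 by edgeR). The summed level of 10 osteoblast markers was 6663 to 16735 CPM in immature 5dpr libraries and 16809 to 27660 CPM at 14dpr, and its part in the Ifitm5 result was not tested. Irf4 measured 7.62, 9.27, 9.05 and 11.4 CPM and then 11.1, 26.9, 19.2 and 18.6 CPM (1.02 ± 0.24, adjusted p = 0.012), with 1 library of 14dpr inside the 5dpr range. Over the same interval 7 of 10 B cell markers rose, with sums of 91.0 to 118 CPM at 5dpr and 154 to 253 CPM at 14dpr, without overlap, and their part in the Irf4 result was not tested. In mature mice Ifi27l2a alone passed, falling from 642, 369.6 and 277 CPM to 148, 109, 109 and 238 CPM (-1.51 ± 0.37, adjusted p = 0.012 by edgeR), and 0 rose, where 2.23% of all genes fell and 1.95% rose. The immature calls were 2 higher and 5 lower without 14dpr replicate 1 (1.42% and 0.967% of all genes in the same fit), 1 and 0 without 14dpr replicate 2 (1.08% and 0.679%) or 4 (1.01% and 0.792%), and 0 without 5dpr replicate 2 (0.877% and 0.731%). The mature call was lost without 14dpr replicate 2 or 3 or 5dpr replicate 1, and without 5dpr replicate 3 the count was 1 higher and 1 lower (0.962% and 0.967% of all genes). Counts of 0 to 2 members are not read as a result about them.

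At 14dpr a part of the list was still above its baseline level. Relative to baseline 30 members were higher and 4 lower in immature mice (16.4% and 15.1% of all genes), and 28 were higher and 6 lower in mature mice (17.1% and 16.4%). Of these, 23 were higher at both ages (76.7% of the immature and 82.1% of the mature list, against 78.9% and 75.5% of the higher calls over all genes). The GBP genes, with 4 of 11 higher in immature and 3 in mature mice, and the IFI200 genes, with 4 and 5 of 11, were represented, as were both MX genes. Stat2 did not pass at either age. The largest rises in immature mice were those of Zbp1 (2.03 ± 0.34), Ifi205 (1.74 ± 0.32), Ifi30 (1.71 ± 0.19), Ifi211 (1.69 ± 0.23) and Oas1g (1.63 ± 0.56). In mature mice they were Ifi205 (2.56 ± 0.33), Ifi204 (1.86 ± 0.22), Ifi44 (1.80 ± 0.35), Ifit3 (1.79 ± 0.37) and Ifit1 (1.68 ± 0.37).

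Ifi204 shows the pattern. The immature libraries measured 30.0, 23.1, 22.8 and 22.7 CPM at baseline and 102, 64.6, 80.3 and 55.7 CPM at 14dpr. The mature libraries measured 25.6, 26.6, 28.3 and 25.7 CPM and 116, 68.2, 85.4 and 115 CPM. Every 14dpr library was above every baseline library, and the change was 3.07-fold and 3.62-fold (edgeR adjusted p = 5.1e-07 and 3.4e-08). Isg15, by contrast, measured 29.4, 22.5, 25.9 and 14.5 CPM and 30.9, 25.1, 18.0 and 11.9 CPM in immature mice, with overlap, and did not pass at either age.

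Ifitm6, Irf4, Isg20 and Rsad2 were lower at 14dpr than at baseline at both ages. Rsad2 measured 161, 155, 179.6 and 90.3 CPM at baseline and 66.3, 75.1, 54.3 and 46.7 CPM at 14dpr in immature mice. The mature values were 208, 173, 262 and 219 CPM and 47.0, 43.3, 52.8 and 60.5 CPM. No library overlapped, and the level at 14dpr was 2.41-fold and 4.23-fold lower (edgeR adjusted p = 0.0061 and 2.8e-05). Isg20 went from 70.0, 62.7, 73.7 and 68.1 CPM to 14.7, 14.6, 11.8 and 15.6 CPM in mature mice (-2.27 ± 0.32). Ifitm6, a form known from marrow myeloid cells, went from 56.2, 38.7, 45.3 and 47.4 CPM to 16.1, 23.1, 9.22 and 16.7 CPM in immature mice (-1.52 ± 0.50), and its log2 fold change in mature mice was -2.27 ± 0.51. Gbp8 fell by 1.72 ± 0.45 log2 units in mature mice, where Cmpk2 fell as well, and neither passed the threshold in immature mice.

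Marker lists moved with this comparison too. Of 10 neutrophil markers 9 fell in immature and 10 in mature mice, with sums of 6916 to 11379 CPM at baseline and 1489 to 3144 CPM at 14dpr in immature mice and, for mature mice, of 8466 to 21510 and 1205 to 4599 CPM. At each age 8 of 10 macrophage markers were higher and 1 lower, and 15 and 13 of 15 muscle markers were lower. The part of these cells in the result was not tested. With the muscle score as a covariate the calls were 5 higher and 1 lower at the immature age (5.98% and 3.10% of all genes in the same fit). They were 14 and 5 at the mature age (13.1% and 10.8%). In that fit the immature share of the members was close to or below that of all genes. Summed muscle levels in immature mice were 58706 to 79301 CPM at baseline and 12189 to 20453 CPM at 14dpr. In mature mice they were 32429 to 67382 and 14371 to 26857 CPM. The stages did not overlap at either age, so stage and muscle share cannot be told apart and the adjusted counts do not separate them.

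From baseline to 0dpr most of the members that passed the threshold fell. In mature mice 22 members fell and 1 rose, against 10.6% and 11.9% of all genes, and every 0dpr library lay below every baseline library for 31 members (11.5% of all genes). The 22 that fell comprised 4 each of the IFI200, IRF and OAS genes, 3 IFITM genes, 2 other IFI genes and 1 each of the GBP, ISG, MX and sensor groups and Stat2. Among members with a mean of at least 1 CPM the largest falls were those of Ifitm1 (-2.16 ± 0.47), Oas1g (-2.06 ± 0.67), Ifitm6 (-1.80 ± 0.50), Ifitm5 (-1.63 ± 0.49) and Oas3 (-1.30 ± 0.40). Ifitm1 measured 14.1, 21.3, 43.0 and 10.2 CPM at baseline and 3.29, 5.61, 3.99 and 6.95 CPM at 0dpr, without overlap. Irf2bpl rose, from 14.4, 15.9, 11.8 and 22.4 CPM to 54.1, 24.9, 33.1 and 24.3 CPM (1.08 ± 0.30, adjusted p = 0.0091 by edgeR). The 0dpr libraries of this comparison are also the reference for the change to 2dpr. Over this interval all 15 muscle markers rose in mature mice, from 32429 to 67382 CPM up to 75770 to 156027 CPM, and 8 of 10 macrophage and 6 of 10 neutrophil markers fell. With the muscle score as a covariate 1 member was called (1.88% of all genes). The muscle levels at these stages did not overlap, so stage and muscle share cannot be told apart.

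In immature mice 8 members fell and 1 rose over the same interval (4.66% and 5.98% of all genes), no muscle marker passed the threshold and 3 neutrophil markers fell. Fitting only the libraries compared called 0 members (0.226% of all genes), and the muscle covariate left 3 (4.61%) and the replicate block 5 (3.78%). Ifi27 rose by 0.64 ± 0.19, and Oas1c (-1.31 ± 0.38), Irf8 (-1.13 ± 0.22), Ifi47 (-1.10 ± 0.33), Isg20 (-1.0 ± 0.31) and Cmpk2 (-0.91 ± 0.29) had the largest falls among members of at least 1 CPM. Irf8 measured 64.1, 64.9, 49.4 and 77.0 CPM at baseline and 19.3, 52.4, 15.7 and 29.8 CPM at 0dpr, where replicate 2 overlapped with baseline. Immature 0dpr replicate 2 was high for most members, with a median deviation of 0.46 log2 units from the other 3 libraries. Without it 19 members fell and 2 rose, where 9.23% of all genes fell and 6.86% rose. The count was 0 higher and 3 lower without 0dpr replicate 1 (3.53% and 2.36% of all genes in the same fit), 0 and 2 without 0dpr replicate 3 (3.08% and 0.726%), 2 and 3 without baseline replicate 2 (3.47% and 2.33%), and 0 and 5 without baseline replicate 6 (2.94% and 2.06%). For mature mice it was 1 and 12 without baseline replicate 2 (8.13% and 6.94%), 0 and 10 without 0dpr replicate 1 (9.35% and 6.19%), and 1 and 9 without 0dpr replicate 3 (8.99% and 5.62%).

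Between the ages, no member passed the adjusted threshold at any single stage. At baseline, 0, 2, 5 and 14dpr, edgeR called 0 of 77 members each time, where 0.585%, 0.726%, 0.627%, 0% and 0.00943% of all genes were called. Unadjusted p-values under 0.05 were found for 12, 6, 6, 2 and 5 members in that order, when 11.7%, 10.7%, 13.3%, 5.10% and 4.57% of all genes had one. DESeq2 called 2 members lower in immature mice at baseline (0.993% of the genes it tested) and 0 at each later stage, and fitting only the libraries compared called 3 lower at baseline (1.25% of all genes). The median log2 difference of immature over mature mice was -0.29 at baseline, -0.06 at 0dpr, -0.32 at 2dpr, -0.04 at 5dpr and -0.17 at 14dpr, where the medians of all genes lay between -0.02 and 0.04. At baseline and 2dpr 66 and 63 of the 77 differences were negative (85.7% and 81.8%, against 50.04% and 45.8% of all genes). At 0, 5 and 14dpr 42, 44 and 55 were negative (54.5%, 57.1% and 71.4%, against 51.8%, 53.5% and 51.7%).

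**Figure D4:**
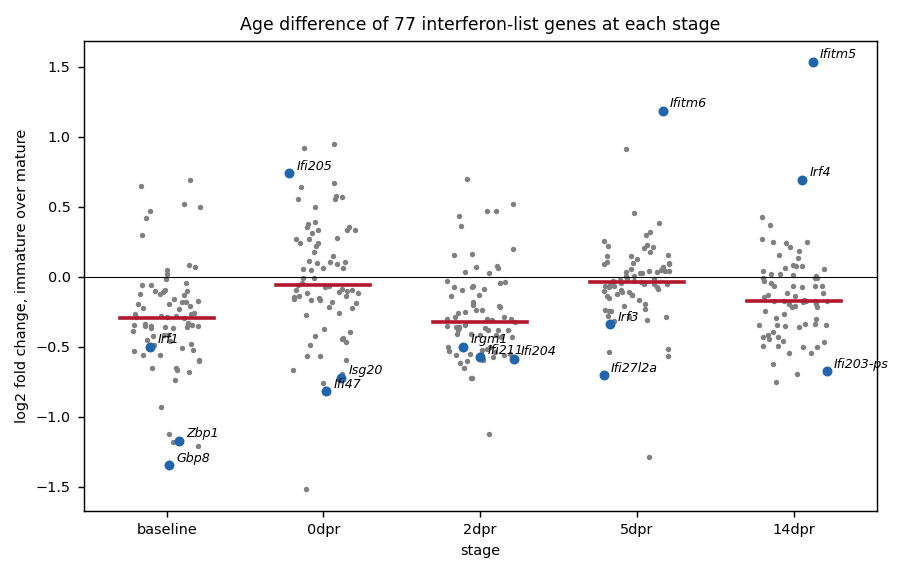
Log2 fold change of immature over mature mice for the 77 genes at each stage, with a bar at the median and names on the 3 genes of smallest p. The medians at baseline and 2dpr lie below 0 and no point passed the adjusted threshold.

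At baseline Zbp1 had the smallest p. It measured 5.48, 3.50, 2.95 and 3.92 CPM in immature and 7.96, 10.3, 10.3 and 7.07 CPM in mature libraries. Every immature library was below every mature library, and the difference was -1.17 ± 0.34 log2 units (95% interval -1.83 to -0.51, edgeR adjusted p = 0.11, exact two-sided permutation p = 0.0286, the smallest that 4 against 4 libraries can give). Gbp8 differed by -1.34 ± 0.44 (edgeR adjusted p = 0.18), with 6.17, 3.81, 5.22 and 3.45 CPM against 21.8, 9.05, 9.66 and 6.84 CPM, also without overlap, and Irf1 by -0.50 ± 0.17 (edgeR adjusted p = 0.21). Complete separation in this direction was seen for 11 members at baseline (4.63% of all genes), namely Zbp1, Gbp3, Gbp4, Gbp8, Irgm2, Ifi27, Ifi47, Ifi211, Irf9, Isg20 and Xaf1, and for 0 members in the other direction (4.42%). No gene of the cell type marker lists was called between the ages at baseline or 2dpr, but the summed osteoblast markers at 2dpr, 4821 to 8383 CPM in immature and 1677 to 3189 CPM in mature libraries, did not overlap, nor did the B cell markers at 76.5 to 95.8 and 59.6 to 73.3 CPM. The other sums at 2dpr overlapped, with medians in immature and mature mice of 2391 and 3123 CPM for monocyte, 3856 and 4340 CPM for macrophage, 1563 and 2878 CPM for neutrophil and 16493 and 10712 CPM for muscle markers. At baseline the median sums were lower in immature than in mature mice for macrophage (779.9 and 1009 CPM), neutrophil (7798 and 12025 CPM), T and NK cell (49.2 and 80.4 CPM) and plasmacytoid dendritic cell markers (34.8 and 46.0 CPM) and higher for muscle markers (73022 and 45857 CPM), all with overlap. The part of these cells in the age differences was not tested.

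At 2dpr, the stage at which most members were highest, the smallest p-values belonged to IFI200 genes and Irgm1. Ifi204, at 87.0, 239, 232 and 187 CPM in immature and 329, 272, 244 and 269.7 CPM in mature libraries, did not overlap between the ages. It differed by -0.58 ± 0.21 log2 units (95% interval -1.0 to -0.17, edgeR adjusted p = 0.21). Ifi211 and Irgm1 differed by -0.57 ± 0.21 and -0.50 ± 0.19 (edgeR adjusted p = 0.21 and 0.24), with overlap. For Mx1 the interval of the difference ran from -1.19 to 0.14, for Isg15 from -1.18 to 0.32 and for Irf7 from -1.03 to 0.43 log2 units, and each of these intervals includes 0. Leaving out immature 2dpr replicate 1 moved the median difference of the members from -0.32 to -0.09, and leaving out mature 2dpr replicate 3 moved it to -0.51, while the count of calls was 0 in each case.

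**Figure D5:**
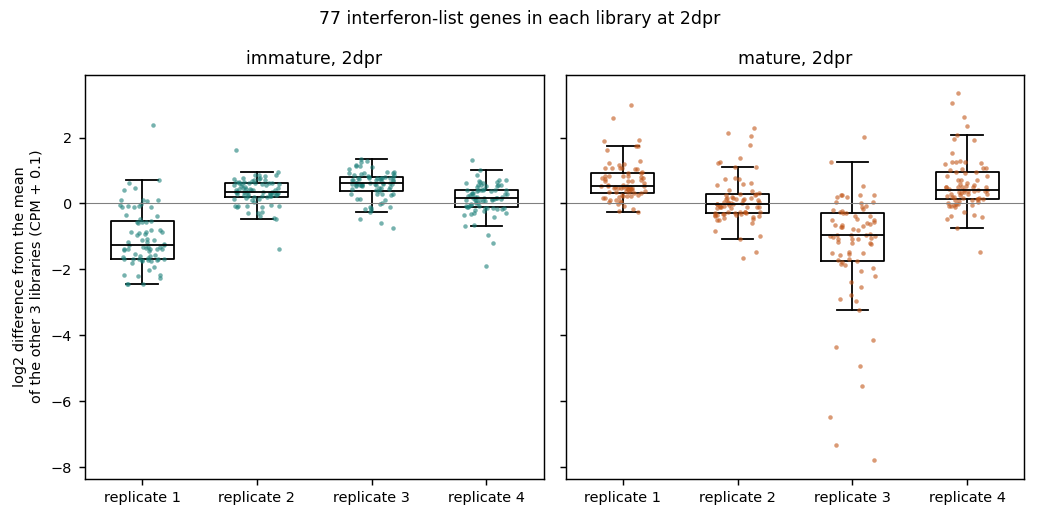
Log2 difference of each of the 77 genes from the mean of the other 3 libraries of its group at 2dpr, by library, for immature and mature mice. Immature replicate 1 and mature replicate 3 lie mostly below 0, and for all genes the median of immature replicate 1 was near 0.

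In immature 2dpr replicate 1, 59 of the 77 members had their lowest value of the group, against 26.8% of all genes, and 18 interferon effectors outside the list lay a median of 1.03 log2 units below the other libraries. In the same library the summed T and NK cell markers were at 45.5 CPM against 8.89 to 16.0 CPM in the other 3, the plasmacytoid dendritic cell markers at 14.97 against 7.202 to 11.2 CPM and the monocyte markers at 1714 against 1983 to 3123 CPM, and their part was not tested. In mature 2dpr replicate 3, 56 members had their lowest value, against 53.7% of all genes, and 10 members had no reads. The correlation of log2 CPM with the rest of the group, over genes and given only as a description, was 0.975 for the immature and 0.893 for the mature library.

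At 0dpr the smallest p-values belonged to Ifi47 (-0.82 ± 0.33, adjusted p = 0.30), Isg20 (-0.72 ± 0.31) and Ifi205 (0.74 ± 0.33), and 1 member was called without immature 0dpr replicate 2 (2.37% of all genes). At 5dpr they belonged to Irf3 (-0.34 ± 0.15), Ifitm6 (1.19 ± 0.55) and Ifi27l2a (-0.70 ± 0.36). At 14dpr Ifitm5 measured 8.04, 13.9, 5.32 and 15.9 CPM in immature and 3.25, 5.03, 4.12 and 2.49 CPM in mature libraries, a complete separation (1.53 ± 0.46 log2 units, 95% interval 0.63 to 2.44, edgeR adjusted p = 0.66). Osteoblast marker sums at 14dpr were 16809 to 27660 CPM in immature and 11544 to 22916 CPM in mature libraries, with overlap, and their part was not tested. Irf4 (0.69 ± 0.24) and Ifi203-ps (-0.67 ± 0.31) came next.

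Averaged over the 5 stages, 1 member passed. Irf4 was higher in immature mice by 0.40 ± 0.11 log2 units (95% interval 0.18 to 0.61, edgeR adjusted p = 0.040), where 2.45% of all genes were called, 10 members had an unadjusted p under 0.05 (12.7% of all genes) and 66 members had a negative difference. The median difference of all genes was -0.0036 log2 units. The median B cell marker sums were higher in immature than in mature mice at baseline (309.8 and 222 CPM), 2dpr (83.3 and 66.7 CPM), 5dpr (109 and 92.2 CPM) and 14dpr (183 and 150.3 CPM) and slightly lower at 0dpr (180.1 and 184 CPM), overlapping between the ages except at 2dpr, no B cell marker was called, and their part in the Irf4 difference was not tested. The call of Irf4 was lost with a replicate block (edgeR adjusted p = 0.098) and in 20 of the 39 omissions of a single library. Without mature 2dpr replicate 3 the count was 2 higher and 1 lower (2.22% and 1.52% of all genes in the same fit), and without immature 0dpr replicate 2 or immature 2dpr replicate 3 it was 1 and 1 (1.81% and 1.25%, and 1.59% and 0.844%).

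The changes themselves were also compared between the ages. No member passed the adjusted threshold of edgeR for a different change from baseline to 0dpr, from 0 to 2dpr, from 2 to 5dpr or from 5 to 14dpr, where 0.0141%, 0.0613%, 0% and 0% of all genes did, and DESeq2 called 0 members in each interval. Unadjusted p-values under 0.05 were found for 5, 7, 1 and 1 members, against 8.07%, 11.2%, 8.08% and 4.25% of all genes. From 0 to 2dpr the smallest p-values were those of Ifi211 (-1.07 ± 0.32, 95% interval -1.69 to -0.45, edgeR adjusted p = 0.21), Ifi207 (-0.84 ± 0.28) and Gbp4 (1.12 ± 0.39). For Mx1 and Zbp1 the intervals of the difference in change were -1.40 to 0.80 and -1.19 to 0.67 log2 units. In the other intervals the smallest p-values were those of Oas1c (-1.45 ± 0.53), Ifi211 (0.85 ± 0.33) and Ifi203-ps (1.07 ± 0.46) from baseline to 0dpr and of Ifitm6 (1.91 ± 0.73 and -1.62 ± 0.74) in both later intervals.

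Other genes of the pathway, taken from lists that leave out the 77 members, mostly rose from 0 to 2dpr as well. In this interval 21.8% and 22.7% of all genes rose in immature and mature mice. Of 18 other interferon effectors all 18 rose from 0 to 2dpr at both ages, with medians of 1.57 and 1.94 log2 units, and Phf11b (3.16 ± 0.36 and 3.65 ± 0.36) and Slfn8 (2.80 ± 0.29 and 3.00 ± 0.29), a member of the Schlafen family, were among them. Of 14 nucleic acid sensors and adaptors 13 rose at each age, such as Dhx58, a helicase of the Ifih1 family (2.88 ± 0.29 and 3.17 ± 0.29), Tlr8, an endosomal RNA sensor (2.60 ± 0.24 and 2.89 ± 0.24), and Tmem173, the adaptor STING (2.29 ± 0.15 and 2.58 ± 0.15). Mavs, the mitochondrial adaptor of Ifih1, fell (-0.72 ± 0.19 and -1.40 ± 0.20). Of 9 receptor chains and kinases 7 and 8 rose, Ifnar1 among them (1.60 ± 0.10 and 1.86 ± 0.10). Of 6 negative regulators 4 rose at each age, with Socs3, a feedback inhibitor of cytokine signalling, at 1.62 ± 0.32 and 3.15 ± 0.34.

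Of 20 antigen presentation and chemokine targets 14 rose from 0 to 2dpr at the immature age (21.8% of all genes). At the mature age 12 rose and 1 fell (22.7% and 24.9% of all genes). Cxcl10, a chemokine that draws T cells, rose by 4.24 ± 0.62 and 4.09 ± 0.61 log2 units and Cd274, the checkpoint ligand PD-L1, by 1.52 ± 0.30 and 1.83 ± 0.30. At 14dpr, relative to baseline, 11 and 8 of the 18 other effectors and 9 and 8 of the 14 sensors were higher in immature and mature mice (16.4% and 17.1% of all genes). From baseline to 0dpr in mature mice 10 of the 18 effectors and 10 of the 14 sensors fell (10.6% of all genes). The interferons themselves were hardly sampled. Of the 21 interferon genes counted, 12 had no reads in any library, Ifnb1 had 16 reads in all libraries together, of which 14 were in mature 2dpr libraries and 9 of these in replicate 4, and Ifng had 39. Only Ifng had passed the filter of the tested table, and it was called in none of the comparisons, so differences between groups in the other interferon transcripts were not tested.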

How the data were processed

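Bulk RNA sequencing libraries of rib callus tissue were analysed from the deposited tables. The authors prepared stranded libraries and, by the submitters' processing notes, mapped the reads to GRCm38 with STAR 2.5.2a. The deposited counts are whole reads per gene without normalization, in a full table and in a filtered table whose rule was not found in the sources used here. The authors' normalized signal is CPM scaled by TMM factors, used to choose the members by name, and it matched CPM recomputed here within a relative difference of 3e-04. A single row that names no mouse gene, at most 0.0022% of counts, was left out. Of 40 samples 39 were analysed, since mature 5dpr replicate 2 was not analysed here.

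Counts of 21203 genes were fitted with edgeR 4.0.16 (quasi-likelihood, TMM, 1 coefficient per group, all libraries) in R 4.3.3, with Benjamini-Hochberg adjustment over all genes and a threshold of 0.05. Fold changes are given ± SE, and a prior count of 2 entered log2 CPM. Age differences of single members were also tested by exact two-sided permutation. Alternatives were DESeq2 1.42.0, its size factors (RLE), another filter and no filter, only the libraries compared, a replicate block, a skeletal muscle score as covariate, a prior count of 0.5, and the omission of each library. Omitting the 2 libraries that stood apart at 2dpr together was added after seeing the data. Replicate numbers went with a weak shared deviation between the ages at 0dpr, as a property of the data and not of the labels. There the same-numbered pairs had correlations of 0.109 to 0.207 (mean 0.150 over 4 pairs), and 3 of the 4 matched their own number best. Between the ages at baseline 2 of 3 pairs did, at a mean correlation of 0.018.

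Members, lists and tests were chosen with earlier results of these data known. Genes named were, per comparison, the 5 largest changes in each direction past the threshold at a mean of at least 1 CPM, the most abundant member per role, the 3 smallest p-values between ages and the members that interferon is not known to drive, with 2 to 4 examples per pathway list. Others were named after their values were seen, and 2 members that enter the counts are not reported here singly. Promoters are from RefSeq (GRCm38.p6). The fitting script was tested on simulated counts. The precision of a value is that of the spread between libraries, and intervals from counting are not given.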

Additional observations from a re-analysis of the deposited data

Results flagged for a closer look

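The most abundant member of each of the 14 roles was examined in each group of 4 libraries, 126 sets of values in all. In 11 of them 1 library lay far from the others by Dixon's criterion, which chance meets in about 1 in 20 groups. Immature 2dpr replicate 1 was lowest for Ifit2 (25.2 CPM against 97.5 to 109 CPM in the other 3 libraries), for Ifih1 (40.4 against 90.4 to 106 CPM) and for Oasl2 (45.7 against 137 to 161 CPM).

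Immature 14dpr replicate 1 was highest for Irf7 (113 CPM against 39.6 to 43.8 CPM) and for Ifi27l2a (245 against 72.2 to 86.9 CPM). Ifi27l2a also had a high library in immature 5dpr replicate 3 (294 against 249.7 to 256 CPM) and in mature baseline replicate 4 (215 against 134 to 145 CPM). Mature baseline replicate 4 was lowest for Ifih1 (37.9 against 47.9 to 48.5 CPM), and mature 14dpr replicate 2 was lowest for Mx1 (10.6 against 20.5 to 22.3 CPM). Ifi204 was highest in immature baseline replicate 2 (30.0 against 22.7 to 23.1 CPM) and Irf2bp2 in immature 14dpr replicate 4 (155 against 130.3 to 134 CPM). No member passed the test of a different change between the ages.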

How the results depend on the processing

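With a skeletal muscle score as covariate the counts were 3 (immature 0dpr against baseline), 18 (immature 2 against 0dpr), 4 (immature 5 against 2dpr), 5 (immature 14 against 5dpr), 6 (immature 14dpr against baseline), 1 (mature 0dpr against baseline), 24 (mature 2 against 0dpr), 7 (mature 5 against 2dpr) and 19 (mature 14dpr against baseline). Of these comparisons, summed muscle levels overlapped between the stages only in immature 0dpr against baseline and mature 5 against 2dpr. In the others stage and muscle share cannot be told apart. Fitting only the libraries compared gave 0 for immature 0dpr against baseline, 11 and 19 for the later immature intervals, 9 and 6 for the later mature intervals and 3 between the ages at baseline, and averaged over all stages it is the same fit as that reported. DESeq2 gave 8 and 3 for 14 against 5dpr in immature and mature mice and 2 between the ages at baseline. A replicate block gave 5 and 4 for immature mice from baseline to 0dpr and from 2 to 5dpr, and 0 for the ages over all stages, where it lost Irf4. It left the comparison of the ages at 0dpr, where same-numbered samples weakly deviated together, at 0 calls. Without both 2dpr libraries that stood apart, 20 and 38 were called from 2 to 5dpr in immature and mature mice. In the same fit 2 were called between the ages over all stages, where 3.21% of all genes were called. With each library left out in turn, the counts ranged from 2 to 21, 52 to 60, 3 to 14 and 0 to 7 over the 4 immature intervals and 26 to 35 for 14dpr against baseline, from 10 to 28, 58 to 64, 8 to 32 and 0 to 2 over the mature intervals and 25 to 38 for 14dpr against baseline, and from 0 to 1 between the ages at 0dpr and 0 to 3 over all stages. Over 1892 values of named genes under an alternative, 1671 kept their call and direction, 190 lost the call, 29 gained it and 2 reversed. These were Oas1c in mature mice from 0 to 2dpr, at -0.19 log2 units with the muscle covariate, and Irf2 in the same comparison, which ranged from -0.011 without mature 2dpr replicate 4 to 0.56 without replicate 3, neither negative value being past the threshold. The cause of these changes, depth included, was not tested.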
